A study of Rattus norvegicus with 3 samples.

Results

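Oligodendrocytes low in Klk6 and Slc5a11 were 1480 of 10806 kept nuclei (11424 cell barcodes) from rat nucleus accumbens. A nucleus was counted among them on raw UMIs, the counted RNA molecules of single-nucleus RNA sequencing. It held at least 10 UMIs summed over 10 oligodendrocyte genes (Mog, Mag, Mal, Opalin, Ermn, Aspa, Cldn11, St18, Prr5l and Mobp) and fewer than 10 over 5 spiny neuron genes (Ppp1r1b, Bcl11b, Pde10a, Rgs9 and Rarb). It also held at most 1 UMI over Rasgrp3, Slc5a11, Klk6 and Cldn14 together, and at most 1 of Gpr17, a receptor of committed precursors. Nuclei that met the same limits but held 2 or more UMIs of the Klk6 sum are called the Klk6 type below.

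Oligodendrocytes wrap axons in myelin, a lipid-rich membrane held together by proteins such as that of Mbp, and they also feed axons and buffer potassium around them. They arise from dividing precursors through a committed stage and a newly formed stage to myelin-forming and mature cells. Each stage has its own genes: Enpp6 and Tcf7l2 mark newly formed cells, Opalin and Mal the myelin-forming ones, and Klk6, Hapln2, Anln and Apod mature ones.

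The study sorted outbred Wistar rats by their behaviour in anxiety tests and sequenced 1 library from each of 3 groups: low anxiety and high anxiety rats, both untreated, and high anxiety rats given urolithin A for 2 months. Urolithin A is a compound that gut bacteria make from plant ellagitannins and that is known for inducing mitophagy. Each library came from accumbens punches of 5 pooled hemispheres at 16 weeks of age, so there is no replicate of any group. Differences between libraries therefore have no replicate check and no p-value, and every interval below is an exact 95% interval that covers counting error only.

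The low anxiety library held 398 such nuclei, the high anxiety library 560 and the urolithin A library 522. They were 11.4% of kept nuclei in the low anxiety library (Clopper-Pearson interval 10.4% to 12.6%), 14.7% in the high anxiety library (13.6% to 15.9%) and 14.8% in the urolithin A library (13.7% to 16.0%). The share was lowest in the low anxiety library, and the other two did not differ beyond counting error. The Klk6 type numbered 321, 525 and 437 nuclei in the same order. Of both kinds together, the Klk6-low nuclei made up 55.4% (51.6% to 59.0%), 51.6% (48.6% to 54.6%) and 54.4% (51.2% to 57.6%), with intervals that overlap. A limit of 1 UMI depends on depth: with every nucleus thinned to 1000 UMIs before the rule was applied, the same 3 shares were 76.2%, 76.0% and 77.2%.

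The whole libraries held 16728049, 22095390 and 19162530 UMIs, and the Klk6-low nuclei 779812, 1427148 and 1230576 of them. Their median nucleus held 1694 UMIs in the low anxiety library, 2211 in the high anxiety library and 2033 in the urolithin A library. Spiny neurons of the same libraries held a median of 6206.5 to 7774 UMIs. Between any pair of libraries 4 to 6 cell barcodes were shared, none of them by Klk6-low nuclei in both. The limit on the Klk6 sum ran through a continuous range: 249, 332 and 320 nuclei had a sum of 0, 149, 228 and 202 had a sum of 1, and 124, 149 and 153 nuclei just outside had a sum of 2.

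The 5 genes given as markers were all higher in Klk6-low nuclei than in all other kept nuclei and than in the Klk6 type, in each of the 3 libraries. Levels are given in CPM, the UMIs of a gene scaled to a total of 1000000 over the nuclei of 1 kind in 1 library. Opalin, a membrane protein of myelin-forming oligodendrocytes, reached 893, 1100 and 1026 CPM in the low anxiety, high anxiety and urolithin A libraries. It stood at 632, 766 and 682 in the Klk6 type and at 35.1, 61.1 and 53.4 in the other kept nuclei, which include the Klk6 type. Mal, a proteolipid of myelin, stood at 4754, 6654 and 6201 CPM. The receptor gene Gpr37 stood at 1257, 997 and 1024, the connexin gene Gjc3 at 450, 429 and 424, and the Wnt receptor gene Fzd10 at 155, 128 and 113. Opalin and Mal are also genes of the rule, so their level describes the choice of nuclei and supports nothing.

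Single nuclei showed the same markers unevenly. After thinning to 1000 UMIs, Mal was seen in 92.7% of Klk6-low nuclei of the low anxiety library, 92.6% of the high anxiety library and 94.4% of the urolithin A library. Opalin was seen in 57.7%, 65.6% and 63.4%, and Fzd10 in 13.6%, 12.9% and 10.4%. Spiny neurons here were kept nuclei with 10 or more UMIs of the spiny neuron genes and fewer than 10 of the oligodendrocyte genes. At the same depth, 0.182%, 0.481% and 0.306% of them had an Opalin UMI. Opalin is one of the oligodendrocyte genes of that limit, so this contrast describes the choice of nuclei. Before thinning, Opalin was seen in 76.9%, 85.9% and 83.3% of Klk6-low nuclei.

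Neuron, astrocyte and microglia markers were lower in Klk6-low nuclei than in the other kept nuclei in all 3 libraries. The 13 spiny neuron markers summed to 749, 588 and 686 CPM, against 8183, 7852 and 7360 in the other nuclei. Among these 13, the 5 genes of the rule summed to 191, 128 and 126 CPM, against 4071, 3978.5 and 3583. The rule limits those 5, so their part of the difference describes the choice of nuclei. The 10 general neuron markers summed to 2056, 1632 and 2000, against 17820, 16945 and 16483. Astrocyte markers summed to 440, 463 and 403 CPM against 1668, 1329 and 1227, and microglia markers to 260, 345 and 295 against 1803, 1660 and 1411. Endothelial and mural markers summed to 16.7, 28.7 and 21.1 CPM against 40.5, 29.3 and 47.2, level in the high anxiety library. Oligodendrocyte precursor markers summed to 440, 288 and 271 against 1237, 1217 and 1209, highest in the low anxiety library. The 6 committed precursor markers were higher instead, at 1986, 2359 and 2209 CPM against 379, 491 and 421. Bcas1, which the newly formed list also holds, made up most of that sum at 1747, 2050 and 1918 CPM, while Gpr17 and Neu4 held 5 to 10 UMIs in each library. A doublet score marked 14, 16 and 6 of the Klk6-low nuclei as likely doublets.

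**Figure D1:**
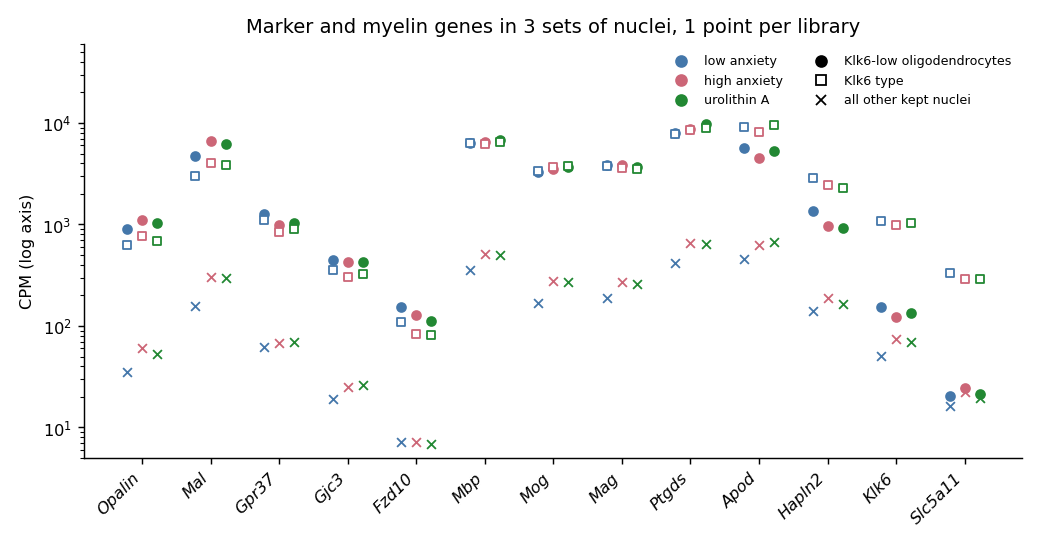
Levels of 13 genes in CPM (log axis) in Klk6-low oligodendrocytes (filled circles), the Klk6 type (open squares) and all other kept nuclei (crosses), 1 symbol per library and colour. Opalin, Mal, Gpr37, Gjc3 and Fzd10 lie higher in Klk6-low nuclei than in the Klk6 type in all 3 libraries, while Apod and Hapln2 lie lower.

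The Klk6-low nuclei and the Klk6 type shared most of their expression. Of 3340 genes with at least 50 UMIs in either kind in every library, 78 (2.34%) passed 1.5-fold upward in Klk6-low nuclei in all 3 libraries and 64 (1.92%) downward. The rule made this contrast, so these values describe the 2 kinds and carry no test. With all nuclei thinned to 1000 UMIs, 47 of the 78 and 44 of the 64 were still called. Without 38 nuclei high in Enpp6, Tcf7l2 and Tmem163, described further on, 54 of the 78 and 56 of the 64 were. Mbp, the gene of myelin basic protein, differed little between the 2 kinds, as the plot of marker and myelin genes shows.

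Among the genes higher in Klk6-low nuclei, Tmem108 held 213, 812 and 469 UMIs in the low anxiety, high anxiety and urolithin A libraries, against 9, 25 and 11 in the Klk6 type. Pnlip, which encodes a lipase known from pancreas, held 71, 229 and 144 UMIs against 0, 8 and 1. Rras2, a Ras-family GTPase of newly formed oligodendrocytes, held 127, 282 and 231 UMIs against 16, 35 and 7. Most UMIs of Tmem108 and Pnlip lay in those 38 nuclei, 87.3%, 93.7% and 95.3% for Tmem108 and 71.8%, 96.9% and 96.5% for Pnlip. For Rras2 the share was 15.7%, 68.8% and 62.3%, and its log2 ratio without them was 2.62, 1.41 and 3.59. Pcdh7, a protocadherin, held 294, 647 and 509 UMIs against 54, 87 and 47. Tmem178a, a transmembrane protein gene, held 60, 82 and 73 against 7, 16 and 14. Ptpro, a receptor phosphatase gene, held 150, 313 and 212 UMIs against 41, 89 and 60. The remaining leading genes were Abr, Trio, the glutamate transporter gene Slc1a1 and the unnamed locus AABR07028615.1. In the high anxiety library their log2 ratios without the 38 nuclei were 0.70, 0.22, −0.051 and 0.13, against 2.42, 1.93, 2.52 and 4.43 with them. They fell less far in the low anxiety library, to 1.42, 1.73, 0.88 and 0.77 from 1.94, 2.41, 2.09 and 2.96. In the urolithin A library they fell to 1.17, 0.32, 1.24 and 0.63 from 2.77, 1.77, 2.70 and 4.32.

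Nfasc, whose glial form joins the myelin loops to the axon beside the node of Ranvier, stood at 1181, 1387 and 1221 CPM against 512, 579 and 508 in the Klk6 type. The 38 nuclei held 12.2%, 37.7% and 33.0% of its UMIs in Klk6-low nuclei. Without them its log2 ratio was 1.05, 0.68 and 0.78, against 1.21, 1.26 and 1.26 with them. Npr1, a natriuretic peptide receptor gene, stood at 285, 242 and 275 against 99.9, 83.9 and 82.8. Grm7, a metabotropic glutamate receptor gene, stood at 283, 256 and 230 against 95.6, 46.9 and 78.4. Each of these was higher in Klk6-low nuclei in every library, and each was chosen for mention after its values were seen.

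Among the genes lower in Klk6-low nuclei, apart from those of the rule, Atp10a, a phospholipid flippase gene, held 9, 14 and 13 UMIs against 50, 124 and 85 in the Klk6 type. Slco3a1, an organic anion transporter gene, held 55, 95 and 61 UMIs against 146, 334 and 259. Etv1, a transcription factor gene, held 20, 27 and 17 against 53, 111 and 70. Anln, which encodes a septin-binding protein of mature myelin, held 79, 157 and 97 UMIs against 191, 415 and 302. S100b, a calcium-binding protein gene, held 24, 47 and 44 UMIs against 76, 136 and 102. The deubiquitinase gene Usp31 and LOC300308 completed this side. Hapln2, a link protein of the extracellular matrix at the node, stood at 1353, 965 and 923 CPM against 2862, 2434 and 2299, and was picked after its values were seen.

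Hapln2 and Apod stood higher at each step of the Klk6 sum, from the Klk6-low nuclei (sums of 0 and 1) into the Klk6 type (2 or more). In the high anxiety library, Hapln2 stood at 745 CPM in nuclei with a Klk6 sum of 0, at 1319 with a sum of 1, at 1840 with a sum of 2 and at 2636 with 3 or more. Apod, a lipid-carrying lipocalin of mature oligodendrocytes, stood at 3642, 5869, 6693 and 8537 over the same 4 steps. In the low anxiety library Hapln2 stood at 978, 2039, 2376 and 3122, and in the urolithin A library at 646, 1401, 1917 and 2472. In all 3 libraries the nuclei with a sum of 1 lay between those with 0 and those with 2 for both genes. Anln followed the same order in the other two libraries but not in the high anxiety library, where it stood at 71.6, 171.7, 163.2 and 339.6 CPM. Deeper nuclei also reach a higher sum, and median UMIs were 2252.5, 2180.5, 2092 and 2497.5 over the 4 steps of the high anxiety library.

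By gene list, 5 of 12 newly formed oligodendrocyte genes were at least 1.5-fold higher in Klk6-low nuclei in all 3 libraries and none was lower. Of all 3340 genes, 2.34% were higher and 1.92% lower by the same limit. The list count includes the nuclei high in Enpp6, Tcf7l2 and Tmem163, described further on. Without them the log2 ratio of Tcf7l2, a member of the list, fell to 0.36, 0.47 and 0.60 from 1.42, 2.35 and 2.10. That of Rras2, given above, stayed at 2.62, 1.41 and 3.59. Of 20 mature oligodendrocyte genes, 8 were lower and none was higher. Of those 8, 3 were Klk6, Slc5a11 and Rasgrp3, which the rule itself made low. Of 24 myelin sheath genes 3 were higher and 1 was lower. The 11 mitochondrially encoded genes had a median log2 ratio of −0.47, −0.24 and −0.38, and none passed 1.5-fold in all 3 libraries. The 29 nuclear-encoded respiratory chain genes had medians of 0.00, −0.03 and −0.03, where all 3340 genes had medians of 0.02, −0.01 and −0.02.

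**Figure D2:**
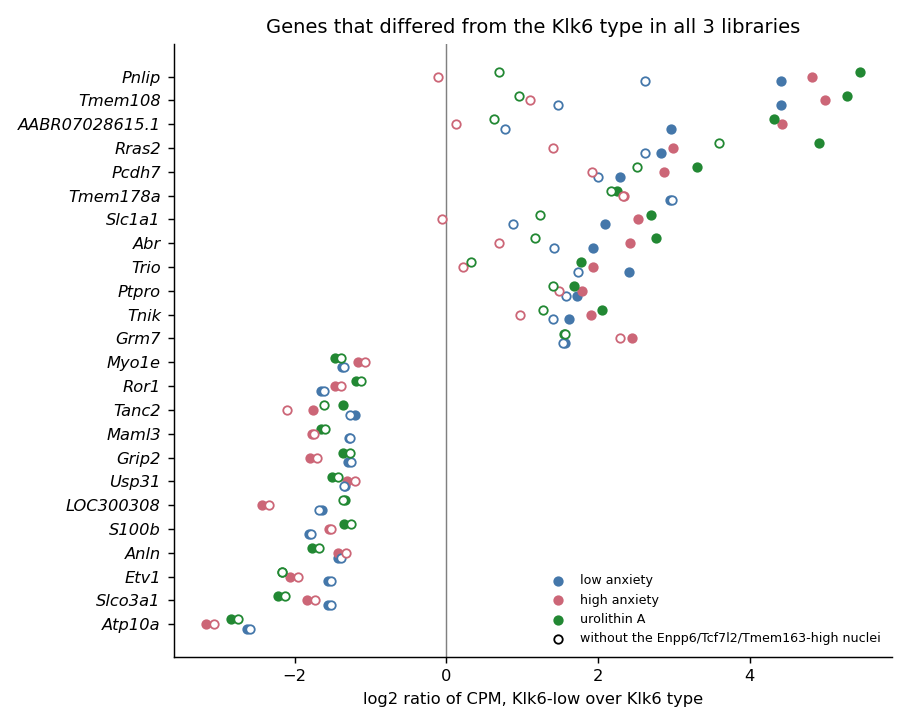
The log2 ratio of CPM between Klk6-low oligodendrocytes and the Klk6 type for the 12 leading genes on each side apart from the genes of the rule, 1 colour per library, with open circles for ratios without the nuclei high in Enpp6, Tcf7l2 and Tmem163. Without those nuclei Pnlip, AABR07028615.1 and Slc1a1 move toward or past 0 in the high anxiety library, while the genes on the lower side barely move.

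A small number of Klk6-low nuclei carried most of the UMIs of 3 genes from the newly formed list: Enpp6, a choline phosphodiesterase gene, Tcf7l2, a Wnt effector transcription factor gene, and Tmem163, a zinc transporter gene. These nuclei were found after the data were seen, by a gap in the per-nucleus sum of the 3 genes. The largest sum below the gap was 5, 9 and 8 UMIs in the low anxiety, high anxiety and urolithin A libraries, and the smallest above it was 13, 23 and 14. With the limit at 10 UMIs, 5 nuclei of the low anxiety library lay above it (1.26% of Klk6-low nuclei, Clopper-Pearson interval 0.409% to 2.91%). The high anxiety library had 17 (3.04%, 1.78% to 4.82%) and the urolithin A library 16 (3.07%, 1.76% to 4.93%). The share was lowest in the low anxiety library, but its interval overlapped both others. They held 51.7%, 73.9% and 65.9% of the UMIs of the 3 genes, and 2.52%, 6.77% and 5.96% of all Klk6-low UMIs.

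These 38 nuclei were deeper than the rest, with medians of 4026, 5429 and 4438.5 UMIs against 1686, 2194 and 2002. With every nucleus thinned to 1000 UMIs, 1.04%, 3.24% and 3.48% held 3 or more UMIs of the 3 genes. The doublet score marked none of them. The Klk6 type had no such nucleus among 321, 525 and 437, and its largest sums were 6, 7 and 6 UMIs. As a rough limit, 3 nuclei would be 0.935%, 0.571% and 0.686% of these. That limit is approximate and narrower than an exact interval. Outside the Klk6-low nuclei, 8, 21 and 9 kept nuclei passed the same limit.

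**Figure D3:**
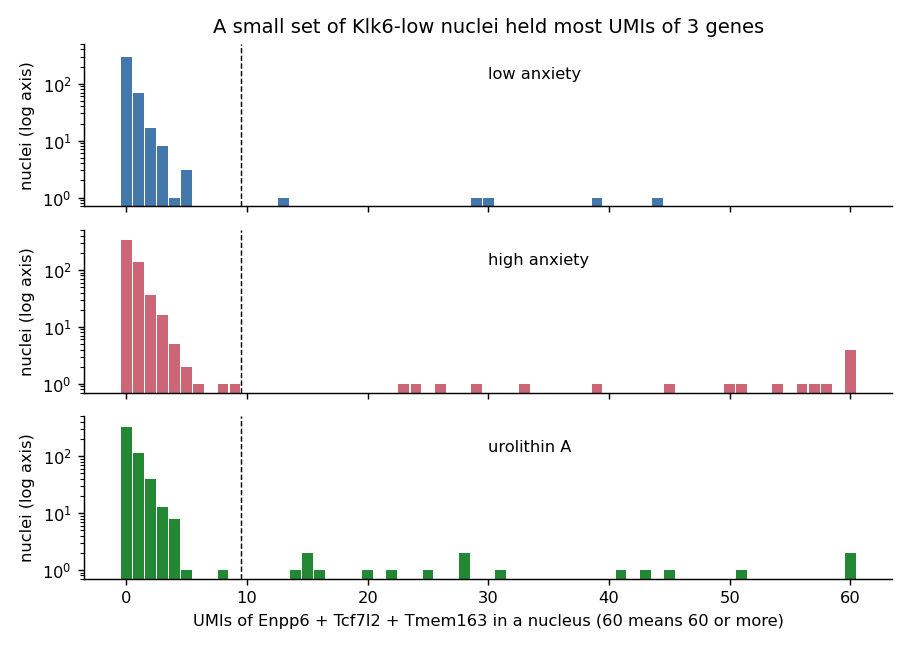
Number of Klk6-low nuclei (log axis) by their summed UMIs of Enpp6, Tcf7l2 and Tmem163, 1 panel per library, with sums of 60 or more drawn at 60 and the limit as a dashed line. Most nuclei hold 0 to 3 UMIs, and 5, 17 and 16 nuclei lie to the right of the limit across a gap.

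The 38 nuclei differed widely from the other Klk6-low nuclei, as a description of nuclei picked on their expression. Of 5673 genes with at least 100 UMIs in all, 1043 (18.4%) were higher in them by 1.5-fold or more and 1876 (33.1%) lower by as much. All 12 measured newly formed oligodendrocyte genes were higher, 3 of which chose the nuclei. Tmem108 stood at 7353 CPM in them against 30.8 in the rest. Bcas1, an early oligodendrocyte gene, stood at 6668 against 1658, and Fyn, a kinase gene that acts early in myelination, at 1778 against 73.0. Sox10, the lineage transcription factor gene, stood at 865 against 379. Nfasc stood at 7148 against 939, and the matrix gene Bcan, which encodes brevican, at 2057 against 32.3.

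All 18 measured mature oligodendrocyte genes were lower in the 38 nuclei, with a summed level of 1461 CPM against 35819. Hapln2 had 0 UMIs in them against 3568 in the rest, and Apod had 10 against 17360. The label's own markers were also low: Mal had 5 UMIs against 20829, Opalin 6 against 3523 and Fzd10 0 against 442. Gjc3 was the exception, at 517 CPM against 427. The 38 nuclei thus met the rule while lacking most of the markers given for the cell type. Mbp was higher in them, at 11479 against 6278, and Mag was alike at 3635 against 3816.

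Genes of cholesterol synthesis, which myelin growth needs, were higher in the 38 nuclei for 10 of 17 measured members and lower for 1. Cyp51, which encodes lanosterol demethylase, stood at 1108 CPM against 283. The list summed to 3160, 5922 and 5262 CPM in these nuclei of the low anxiety, high anxiety and urolithin A libraries, against 2553, 2343 and 2420 in the rest. All 11 mitochondrially encoded genes were lower in them, with a summed level of 5576 against 15386. Precursor markers were higher, at 1746 against 233 in sum, with Vcan, the gene of the matrix proteoglycan versican, at 322 against 27.4. Gpr17 was limited by the rule itself.

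The first comparison of groups set high anxiety against low anxiety rats. Of 2990 genes with at least 100 UMIs in either library, 109 (3.65%) were higher by 1.5-fold or more in Klk6-low nuclei of high anxiety rats and 28 (0.936%) were lower by as much. Among 2010 genes at least as high in Klk6-low as in all other nuclei, 80 (3.98%) were higher and 8 (0.398%) lower. The balance moved with the nuclei just described: without them, 65 genes were higher and 32 lower. Of the 109 higher genes, 77 were still measured without them and 58 were called both times. Of the 28 lower genes, 27 were still measured and 23 were called both times. The high anxiety library was the deepest, which lets genes high there reach 100 UMIs more easily. With a minimum of 250 UMIs over the 3 libraries in its place, 78 genes were higher and 34 lower. The median log2 ratio of all 2990 genes was 0.03.

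Of the 10 genes highest in high anxiety rats among those at least as high in Klk6-low as in other nuclei, 7 had most of their Klk6-low UMIs in those nuclei. Cemip2, a hyaluronidase gene, held 27 UMIs in the low anxiety library, 184 in the high anxiety library and 73 in the urolithin A library. Its log2 ratio was 1.90 (1.31 to 2.54), and −2.0 (−3.52 to −0.64) without the nuclei, on 16 and 7 UMIs. Sez6l held 33, 177 and 86 UMIs (log2 ratio 1.55, 0.51 without), and Dock6, a guanine exchange factor gene, 26, 134 and 87 (1.49, 0.19 without). Nckap5 held 65, 331 and 236 UMIs (1.48; −0.71 without, on 41 and 44 UMIs) and Tmem163 82, 361 and 219 (1.27, 0.47 without). Bcan held 60, 255 and 180 UMIs (1.22, 0.49 without) and Tcf7l2 143, 557 and 377 (1.09, 0.27 without). All 7 were lowest in the low anxiety library and highest in the high anxiety library. Their intervals treat UMIs as independent, while many of these UMIs came from few nuclei. In the high anxiety library 17 nuclei held from 63.2% (Tmem163) to 96.2% (Cemip2) of the UMIs of each gene. In the low anxiety library 5 nuclei held from 32.9% (Tmem163) to 66.7% (Bcan). Over all genes, the protocadherin gene Pcdh17 had the second highest ratio, with 42, 258 and 133 UMIs (1.75), and stood at −0.37 (−1.11 to 0.39) without the nuclei. The unnamed locus AABR07000398.1, also among the 5 highest of all genes, held 21, 107 and 55 UMIs (1.48, and 1.47 without).

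The other 3 of the 10 kept their ratio without those nuclei. Rps9, a small ribosomal subunit gene, held 23, 103 and 65 UMIs, with a log2 ratio of 1.29 (0.63 to 2.01) and 1.38 without. The RNA-binding protein gene Pcbp1 held 26, 107 and 75 UMIs (1.17, 0.54 to 1.85). Pdap1, which encodes a phosphoprotein that binds platelet-derived growth factor, held 29, 119 and 75 (1.16, 0.57 to 1.80). The urolithin A library lay between the other two for each. In all other nuclei, Rps9 stood at 34.4, 35.1 and 39.3 CPM, Pcbp1 at 20.0, 28.1 and 32.6 and Pdap1 at 41.9, 57.5 and 60.1. All 3 were thus also lowest in the low anxiety library outside the Klk6-low nuclei, though Rps9 differed little from the high anxiety library there.

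The lowest of the genes at least as high in Klk6-low as in other nuclei lay within a narrow range. Psap, which encodes the lysosomal protein prosaposin, held 1002 CPM in the low anxiety library, 629 in the high anxiety library and 678 in the urolithin A library, a log2 ratio of −0.67 (−0.81 to −0.53). Aplp1, a relative of the amyloid precursor protein gene, stood at 5111, 3213 and 4033 (−0.67, −0.73 to −0.61). Hspa8, a constitutive heat shock chaperone gene, stood at 336, 202 and 212 (−0.74, −0.98 to −0.49), and Ermard at 122, 72.9 and 96.7 (−0.74, −1.16 to −0.32). Smpd1, the gene of lysosomal acid sphingomyelinase, stood at 113, 76.4 and 87.8 (−0.56). All 5 were highest in the low anxiety library and lowest in the high anxiety library.

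These genes were also lower in the other nuclei of the high anxiety library. In those, Psap stood at 598, 390 and 493 CPM, Aplp1 at 999, 667 and 909, and Hspa8 at 150, 99.6 and 144. The remaining 5 of the 10 lowest were Plbd2, Arl6ip1, Ercc8, Tmed7 and Abhd16a, with log2 ratios from −0.65 to −0.57.

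The lowest ratios of all genes belonged to genes far higher in the other nuclei. Tenm2, a teneurin of synapses, held 156, 95 and 62 UMIs in Klk6-low nuclei (log2 ratio −1.59, −1.97 to −1.21), and it stood at 3140, 2978 and 2693 CPM in the other nuclei. Lrrtm4, a synaptic adhesion gene, held 138, 85 and 151 UMIs (−1.57), Cntnap2, which encodes an axonal adhesion protein, 109, 75 and 65 (−1.41) and Lrp1b 157, 110 and 107 (−1.39). General neuron markers moved the same way, from 2056 to 1632 CPM. Their part in these ratios was not tested.

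Myelin genes differed little in level between low and high anxiety rats. Within lists a gene was counted when it was at least 25% higher or 20% lower, which 13.7% and 7.76% of all measured genes were. Of 24 myelin sheath genes, 4 were higher and 1 lower, with a median log2 ratio of 0.05. Mog, Mag, Mobp, Mal, Cldn11, Opalin and Ermn in this list are genes of the rule, so their levels partly describe the choice of nuclei. Mbp stood at 6282, 6492 and 6829 CPM (0.05, 0.00 to 0.10). Mal was higher in high anxiety rats at 0.49 (0.43 to 0.54), as was Ermn, which encodes a cytoskeletal protein of myelin, at 208, 336 and 271 (0.69, 0.43 to 0.96). Hapln2 was lower at −0.49 (−0.60 to −0.37). Mog, Mag, Cldn11, Cnp and Mobp had log2 ratios between −0.15 and 0.13.

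A few abundant transport and lipid genes of mature oligodendrocytes were lower in high anxiety rats. Tf, the iron carrier gene transferrin, stood at 7298, 5120 and 5727 CPM (−0.51, −0.56 to −0.46). Enpp2, which encodes autotaxin, stood at 2946, 2152 and 2357 (−0.45, −0.53 to −0.37). Gsn, the actin-severing gelsolin gene, stood at 2056, 1452 and 1763 (−0.50), and Elovl1, which elongates very long fatty acids, at 631, 433 and 489 (−0.54). Each was highest in the low anxiety library and lowest in the high anxiety library. Of 22 lipid genes 3 were higher and 5 lower (median −0.02), and of 16 mature oligodendrocyte genes 2 were higher and 5 lower (median 0.00). Of 14 genes of metabolic support and iron, which include Tf, 5 were higher and 1 lower (median 0.19).

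The newly formed list had 10 of 12 members higher in high anxiety rats and none lower, with a median log2 ratio of 0.48 and of 0.15 without the 38 nuclei. Cytosolic ribosomal protein genes had 22 of 32 measured members higher and none lower, with a median of 0.44 and of 0.52 without those nuclei. Summed over all 78 ribosomal genes the level was 3505, 4709 and 4194 CPM in Klk6-low nuclei. The Klk6 type was alike at 3620, 4642 and 4224, and all other nuclei stood at 2379, 2657 and 2836. Rpl10 held 43, 133 and 118 UMIs (0.76) and Rpl13 57, 168 and 94 (0.69). Ribosomal genes have many near-identical copies in the genome, so the assignment of their reads is uncertain.

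Of 13 measured heat shock and chaperone genes 5 were higher and 1 lower, with a median of 0.11. Hsp90aa1 stood at 464, 695 and 577 CPM (0.58, 0.41 to 0.76) and Cryab, the gene of a small heat shock protein, at 233, 345 and 346 (0.57, 0.32 to 0.82), while Hspa8 was the lower one, as given above. The 5 measured glucocorticoid-responsive genes had a median of 0.06, and none was past the list limits. Fkbp5 held 22, 29 and 28 UMIs. The 25 respiratory chain genes encoded in the nucleus had a median of 0.07 and the 11 mitochondrially encoded ones of 0.11. Ppargc1a, the mitochondrial biogenesis regulator gene, held 37, 25 and 30 UMIs, and Pink1, a mitophagy kinase gene, 23, 48 and 35.

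**Figure D4:**
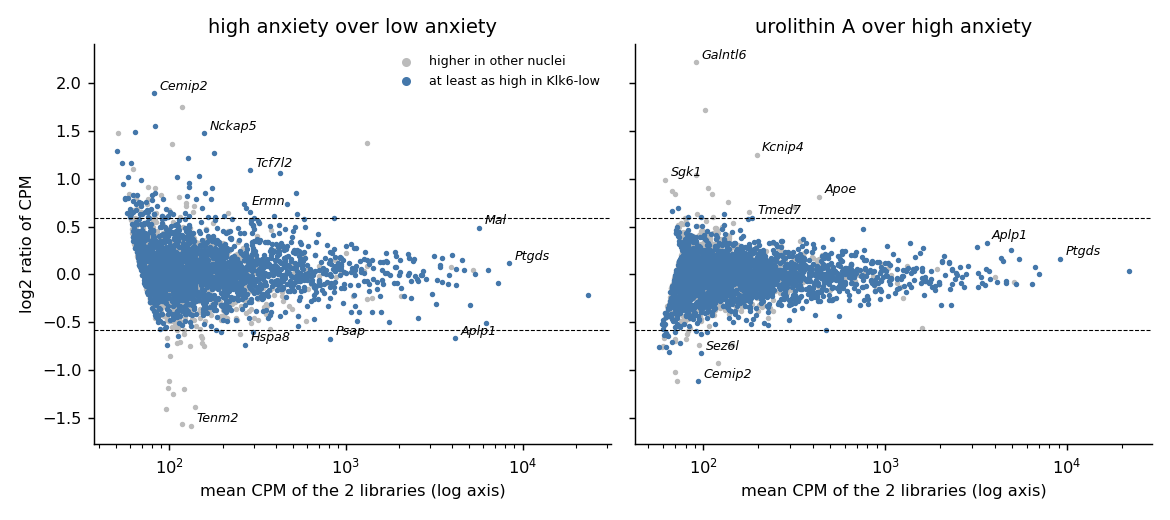
The log2 ratio of CPM against the mean level (log axis) for every measured gene in Klk6-low nuclei, for high over low anxiety (left) and urolithin A over high anxiety (right), with dashed lines at 1.5-fold. Blue genes are at least as high in Klk6-low as in other nuclei; 109 genes lie above and 28 below the lines on the left, and 22 and 28 on the right.

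The second comparison set urolithin A treated against untreated high anxiety rats and shares the high anxiety library with the first, so a value that is extreme in that library appears in both with opposite sign. Of 3028 measured genes, 22 (0.727%) were higher by 1.5-fold or more in Klk6-low nuclei of treated rats and 28 (0.925%) lower by as much. Among 2030 genes at least as high in Klk6-low as in all other nuclei, 6 (0.296%) were higher and 15 (0.739%) lower. The numbers of nuclei high in Enpp6, Tcf7l2 and Tmem163 were alike here, 17 and 16. Without those nuclei 23 genes were higher and 19 lower. Of the 22 higher genes, 20 were still measured without them and 19 were called both times. Of the 28 lower genes, 17 were still measured and 13 were called both times.

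The highest in treated rats, of the genes at least as high in Klk6-low as in other nuclei, were small differences. Zfp90, a zinc finger gene, held 51, 79 and 110 UMIs in the low anxiety, high anxiety and urolithin A libraries, a log2 ratio of 0.69 (0.26 to 1.13). Tmem165, a Golgi ion transporter gene, held 111, 145 and 194 (0.63, 0.32 to 0.95). Fuca1, which encodes lysosomal fucosidase, held 71, 110 and 144 (0.60, 0.23 to 0.97). Tmed7, a cargo receptor gene of the early secretory pathway, stood at 222, 148 and 223 CPM (0.59, 0.33 to 0.86), level with the low anxiety library. Ccdc191, Git1, LOC501297, Ncbp2, Ptdss1 and Eef1a1 had log2 ratios from 0.66 to 0.51.

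Cemip2 was the lowest of these genes in treated rats at −1.12 (−1.53 to −0.72), and stood at 1.09 (−0.34 to 2.66) without the 38 nuclei, on only 7 and 13 UMIs. Within those nuclei it was at 1833 CPM in the high anxiety library and 818 in the urolithin A library. Sez6l followed at −0.83. Trim68, an E3 ligase gene, held 45, 118 and 58 UMIs (−0.81, −1.29 to −0.35), and Ipo13, a nuclear import receptor gene, 29, 102 and 52 (−0.76, −1.27 to −0.26). Hspa9, the mitochondrial heat shock chaperone gene, held 36, 106 and 59 UMIs (−0.63, −1.12 to −0.16). Arhgef37, Tle1, Ldlrad3, Plxnb1 and Ino80d lay between −0.76 and −0.64. All 10 had their highest UMI count in the high anxiety library, the deepest of the 3 in these nuclei.

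Over all genes, the 5 highest were genes higher in the other nuclei. Galntl6 held 53, 46 and 185 UMIs in Klk6-low nuclei (2.22, 1.75 to 2.72), at 533, 600 and 547 CPM in the other nuclei. Kcnd2, a potassium channel gene, held 98, 68 and 193 UMIs (1.72) and Kcnip4, its partner subunit gene, 149, 166 and 341 (interval 0.98 to 1.53). General neuron markers, which include Kcnip4 itself, moved the same way, from 1632 to 2000 CPM, and their part was not tested. Sgk1, a glucocorticoid-responsive kinase gene, held 47, 59 and 101 UMIs (0.99, 0.51 to 1.48). Of 6 measured glucocorticoid-responsive genes, Sgk1 was the only 1 past the list limits, and their median was 0.01. Lower in treated rats were Prex2, a Rac exchange factor gene, with 65, 141 and 56 UMIs (−1.12), the kainate receptor gene Grik1 with 44, 134 and 57 (−1.02) and the astrocyte-abundant glypican gene Gpc5 with 109, 225 and 102 (−0.93). Astrocyte markers, which include Gpc5 itself, summed to 463 and 403 CPM in the 2 libraries, and their part was not tested. Without the nuclei high in Enpp6, Tcf7l2 and Tmem163, the sums were 417 CPM in the high anxiety library and 405 in the urolithin A library. Gpc5 then held 128 and 77 UMIs (−0.53).

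Myelin genes were close to level between treated and untreated high anxiety rats: none of 24 myelin sheath genes was past the list limits, against 5.32% higher and 6.9% lower of all genes, and their median was 0.02. Ermn was at −0.31 (−0.51 to −0.10) and Opalin at −0.10 (−0.21 to 0.01). Both are genes of the rule, as are several others of the list, so their levels partly describe the choice of nuclei. Ptgds, which encodes prostaglandin D synthase, stood at 8042, 8701 and 9718 CPM, highest in the urolithin A library. Apod stood at 5606, 4496 and 5348 (0.25, 0.20 to 0.30), lowest in the high anxiety library. Lamp1, a lysosomal membrane protein gene, stood at 1608, 1219 and 1525 (0.32, 0.23 to 0.42), in the same order. Apoe, the lipid carrier gene apolipoprotein E, stood at 396, 314 and 551 (0.81, 0.64 to 0.99), and at 1784, 1202 and 1344 in the other nuclei. Its ratio was −1.47 among nuclei with 1000 genes or more and 1% mitochondrial UMIs or less.

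Mitochondrially encoded genes were lower in Klk6-low nuclei of treated rats, with 3 of 11 lower by 20% or more and a median of −0.21, where the median of all genes was −0.02. Mt-co1, a cytochrome oxidase subunit gene, held 2256, 2253 and 1798 CPM (−0.33, −0.40 to −0.25), and Mt-co2 2294, 2558 and 2049 (−0.32, −0.39 to −0.25). Mt-nd4l, a subunit gene of respiratory complex I, held 74, 168 and 87 UMIs (−0.74). The sum of the 13 genes was 15540, 15584 and 13548 CPM in Klk6-low nuclei and 10212, 10735 and 12827 in all other nuclei. In the Klk6 type it was 21429, 18404 and 17527. The urolithin A library was thus lowest in both oligodendrocyte kinds and highest in all other nuclei, which include the Klk6 type. Mitochondrial transcripts in a preparation of nuclei depend on how much cytoplasm remains, and that part was not tested. The 25 nuclear-encoded respiratory chain genes had a median of −0.08.

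The newly formed list had 4 of 12 members lower in treated rats and none higher, with a median of −0.20 and of −0.03 without the 38 nuclei. Without them Tcf7l2 stood at 0.03, Tmem163 at −0.05, Bcas1 at −0.04 and Fyn at 0.17. Ribosomal protein genes had 8 of 32 lower and none higher, with a median of −0.15. Mitophagy and autophagy genes had 3 of 20 higher and 1 lower, with a median of 0.06, and the cargo receptor gene Sqstm1 held 136, 199 and 223 UMIs (0.38, 0.10 to 0.66). Among genes of mitochondrial dynamics, Rhot1, an adaptor of mitochondrial transport, held 93, 169 and 211 UMIs (0.53) and Opa1, a fusion gene of the inner membrane, 47, 102 and 61 (−0.53).

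**Figure D5:**
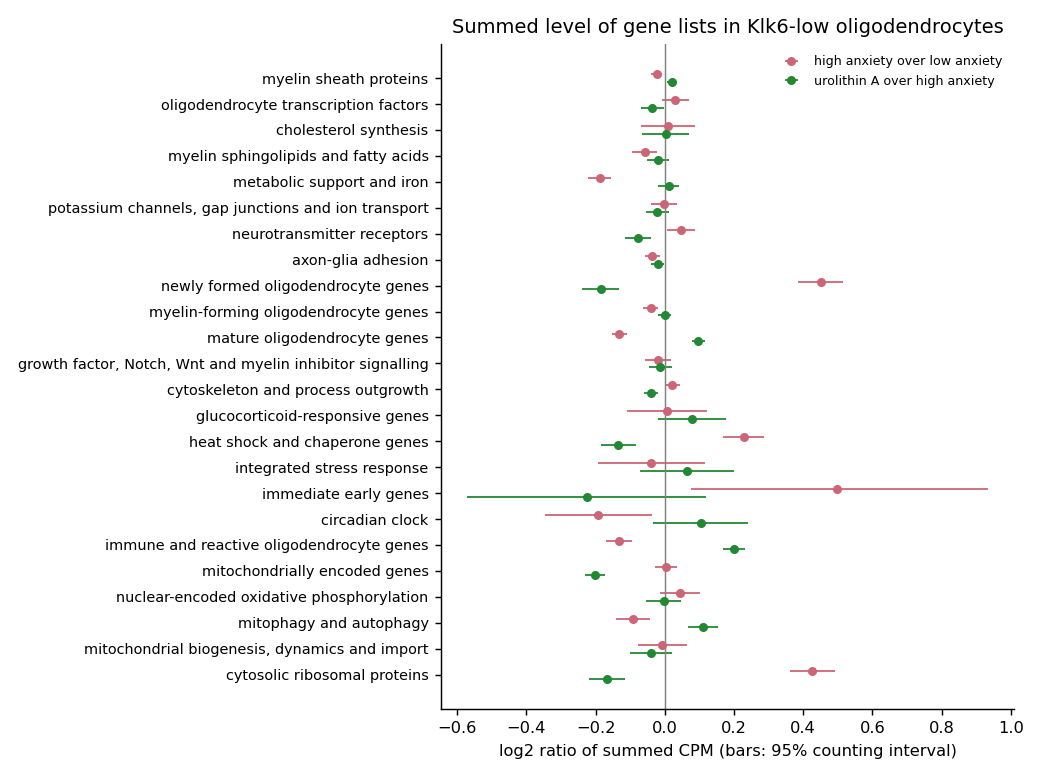
The log2 ratio of the summed CPM of each gene list in Klk6-low nuclei, for high over low anxiety (red) and urolithin A over high anxiety (green), with bars for the 95% counting interval. Newly formed oligodendrocyte genes and ribosomal protein genes lie farthest to the right for high over low anxiety among lists of narrow interval, and mitochondrially encoded genes lie to the left for urolithin A.

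Treated high anxiety rats against low anxiety rats gave 64 genes (2.47%) of 2590 that were higher by 1.5-fold or more and 24 (0.927%) lower by as much. Nckap5 led at 1.20 (0.80 to 1.62) among the genes at least as high in Klk6-low as in other nuclei, and was at −0.50 (−1.15 to 0.15) without the 38 nuclei. Emc8, a membrane protein insertion gene, held 57, 212 and 180 UMIs (1.00, 0.56 to 1.46), and Eef1a1, a translation elongation factor gene, 46, 116 and 142 (0.97, 0.48 to 1.48). Lowest among the same genes were Arfip2 with 124, 194 and 117 UMIs (−0.74), Sbf1 with 194, 253 and 186 (−0.72) and Lrrc1 with 108, 158 and 104 (−0.71). Genes far higher in the other nuclei had lower ratios, such as Nrg1, a neuregulin gene, with 106, 85 and 33 UMIs (−2.34) and Tenm2 at −1.99. Both were picked after their values were seen.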

How the data were processed

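Single-nucleus 3′ libraries (Chromium chemistry v3.1) went through Cell Ranger, version 7.1.0 per the file headers. The submitters' processing notes name mRatBN7.2. The deposited matrices hold whole-number UMI counts, 1 matrix per library, and were used as deposited. A nucleus was kept if it showed 500 genes or more and mitochondrial UMIs made up 5% or less. Nuclei were sorted by the stated sums, counts were added up per library and scaled to 1000000, and ratios got exact conditional 95% intervals. A gene was measured with at least 100 UMIs in 1 of the 2 libraries. Calls needed 1.5-fold; within lists, 25% higher or 20% lower. Both members and lists were chosen with earlier results of these data known, and the sum of Enpp6, Tcf7l2 and Tmem163 after seeing them. Named were the 10 highest and 10 lowest genes at least as high in Klk6-low as in other nuclei, 5 and 5 of all genes, 3 and 3 in the last comparison, 10 on each side against the Klk6 type, the 4 furthest from 0 per list, and a fixed set. Of 747 list symbols 713 matched. Genes named from the Klk6 sum steps and from the 38 nuclei were picked after their values were seen. Doublets were scored with simulated pairs (2000 variable genes, 30 components, 50 neighbours) and left in. The ratio step was tested on simulated data. Python 3.11.15, numpy 2.4.6, scipy 1.17.1, pandas 2.3.3 and scikit-learn 1.9.0 were used.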

Additional observations from a re-analysis of the deposited data

How the results depend on the processing

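No paired analysis was possible because each group had 1 library. Across 13 listed alternatives and 2 added after seeing the data, 2 named ratios past 1.5-fold turned their direction while the gene was still measured. Apoe, urolithin A over high anxiety, went to −1.47 in nuclei with 1000 or more genes and 1% or less mitochondrial UMIs, and Nrxn3, urolithin A over low anxiety, went to 0.080 with likely doublets removed. The cause was not tested. Without the 38 nuclei high in Enpp6, Tcf7l2 and Tmem163, 6 more turned, each left with fewer than 100 UMIs: for high over low anxiety Cemip2 (−2.0), Nckap5 (−0.71), Pcdh17 (−0.37) and Enpp6 (−0.046), for urolithin A over high anxiety Cemip2 (1.09), and for urolithin A over low anxiety Nckap5 (−0.50). Values below follow the order low anxiety, high anxiety, urolithin A.

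Shares of kept nuclei were 7.16%, 8.71% and 9.09% with a Klk6 sum of 0, 5.91%, 10.2% and 12.7% under the strict nucleus filter just named, and 14.9%, 20.3% and 20.4% with nuclei thinned before the rule. They were 16.1% and 16.4% in the latter 2 libraries with no nucleus filter, and 10.4% in the low anxiety library with an oligodendrocyte sum of 20 or more. Shares of both kinds together were 34.6%, 30.6% and 33.4%, then 64.8%, 54.9% and 57.8%, then 76.2%, 76.0% and 77.2% under the first 3 of these.

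Counts of genes higher and lower moved most with the UMI minimum. For high over low anxiety they were 292 and 98 at 50 UMIs, 38 and 7 at 200, 28 and 9 with nuclei thinned to 1000 UMIs, and 71 and 13 under the strict filter. Lower genes numbered 18 with a Klk6 sum of 0 and 17 without likely doublets, and higher genes 65 without the 38 nuclei. For urolithin A over high anxiety the counts were 111 and 122 at 50 UMIs, 6 and 2 at 200, 3 and 8 when thinned, 13 and 15 under the strict filter, and 9 and 44 with an oligodendrocyte sum of 20 or more. Higher genes numbered 11 with a spiny neuron sum under 3, and lower genes 14 with 250 UMIs over all libraries. For urolithin A over low anxiety they were 217 and 68, 17 and 3, 19 and 3, and 37 and 7 under the first 4 settings, with 14 lower at a Klk6 sum of 0 and 13 without likely doublets. Fewer UMIs or nuclei leave fewer genes measured.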
